A study of Mus musculus with 9 samples.

Results

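Gut hormone genes were followed in bulk RNA-seq of mouse duodenum. The set held the 9 peptide hormone genes Cck, Gip, Sct, Ghrl, Sst, Nts, Gcg, Pyy and Tac1, and Tph1, the gene of the enzyme that starts serotonin synthesis. They were taken by gene symbol as 10 of the 54532 genes in the count table, and 9 of them passed the filter on low counts; Pyy did not. The study compared 4 WT with 5 Pla2g12b mutant duodena from male C57BL/6 mice, which were age matched and all ate regular chow for 3 months. The series title ties Pla2g12b to the uptake of dietary lipid by the gut. The labels call the second group Pla2g12b mutant and do not say which change the mice carried; the series title names C129Y as a dominant negative form. They give no age and do not say which layers of the duodenum were taken.

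Enteroendocrine cells are scattered hormone-secreting cells of the gut epithelium that sense what is in the lumen and release peptides or serotonin from dense granules at their base. Cholecystokinin and secretin are the classic duodenal signals to the pancreas and gall bladder, GIP raises insulin release after a meal, and somatostatin restrains most of the others. Their prohormones are cut in the granule by proconvertases, while serotonin is made in enterochromaffin cells by tryptophan hydroxylase 1 and then aromatic amino acid decarboxylase. In bulk tissue a lower value cannot tell fewer cells of a type from less RNA in each cell.

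The promoters of the 3 hormone genes that were lower in the mutant, and of Gip, which was not, show the DNA just before the start of each gene. Each stretch is the 120 bases upstream of the RefSeq start on GRCm38.p6, written 5′ to 3′ on the gene's own strand. Capitals mark the TATA letters TATAAA on the gene's strand, TGACG (the core of the cAMP response element) on either strand, and the E box CANNTG, which reads as an E box on both strands.
Cck promoter, chr9:121495695-121495814, minus strand: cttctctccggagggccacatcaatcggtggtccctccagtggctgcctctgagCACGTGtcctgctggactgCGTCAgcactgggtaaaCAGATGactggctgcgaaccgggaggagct
Sct promoter, chr7:141279134-141279253, minus strand: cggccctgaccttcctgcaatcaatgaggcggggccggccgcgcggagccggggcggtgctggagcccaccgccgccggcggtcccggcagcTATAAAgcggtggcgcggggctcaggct
Tph1 promoter, chr7:46672538-46672657, minus strand: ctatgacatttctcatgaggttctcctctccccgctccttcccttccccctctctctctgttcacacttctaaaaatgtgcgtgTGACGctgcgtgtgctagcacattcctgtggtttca
Gip promoter, chr11:96024425-96024544, plus strand: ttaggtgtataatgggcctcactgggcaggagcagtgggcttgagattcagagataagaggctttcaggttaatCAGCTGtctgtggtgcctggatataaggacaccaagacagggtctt

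No motif searched was in all 3 promoters of the lower genes. Cck had 2 E boxes and 1 TGACG core, Sct had TATAAA and a GC box (GGGCGG on either strand), Tph1 had 1 TGACG core, and Gip had 1 E box. Over the 32851 promoter windows of the same length, 4.19% held TATAAA, 11.7% TGACG, 40.2% an E box and 26.5% a GC box. Among the 10 hormone genes these counts were 2, 4, 5 and 2. The whole cAMP response element TGACGTCA, which contains the core, was in 1.24% of all windows and in 1 hormone promoter, that of Sst. These are matches of letters and no test of binding.

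The libraries held 16119639 to 24009157 counted reads in WT and 16245982 to 17959658 in the mutant, so 3 reads amounted to 0.122 to 0.191 CPM, read counts scaled by library size. The labels give each library its own mouse. Yet 4 close pairs (WT 1 and 2, WT 3 and 4, mutants 2 and 3, mutants 4 and 5) were far more alike than other libraries of one genotype: over genes, chi-square divided by its degrees of freedom was 2.32 to 3.36 within them and 28.7 to 70.1 in the remaining within-genotype pairs. The pairs differed by more than sampling noise, which does not tell separate mice from repeat libraries of 1 mouse. Each library was counted as a sample because the labels number the mice separately, so n and p-values over 9 libraries may overstate the precision. Results are therefore also given for summed pairs, where the counts of each close pair were added together to give 2 WT and 3 mutant units. P-values measure the spread between these libraries, which may be technical within a pair. WT libraries carried pancreatic acinar genes at 3.43 to 7.22% of reads, against 0.00112 to 0.00143% in the mutants, and insulin gene reads were found in WT libraries alone.

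Per kilobase of gene model, Gip was the highest hormone gene in WT duodenum at 71.0 ± 3.40 CPM per kb (SD, n = 4). Sst followed at 58.1 ± 4.13, then Cck at 33.4 ± 1.09 and Sct at 32.8 ± 2.65. The other 6 were well below these, from Gcg at 5.51 ± 2.57, Ghrl at 3.48 ± 0.673 and Tph1 at 3.32 ± 0.268 to Pyy at 2.84 ± 2.51, Nts at 1.30 ± 1.12 and Tac1 at 1.01 ± 0.313. Cck and Sct overlapped over the WT libraries, as did each neighbouring pair from Gcg down, whereas Gip and Sst, Sst and Cck, and Sct and Gcg did not.

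In mutant duodenum the order began with Gip at 75.7 ± 15.7 CPM per kb (SD, n = 5) and Sst at 51.1 ± 5.33. Sct at 23.8 ± 3.02 and Cck at 19.6 ± 2.79 came next and overlapped. Ghrl at 4.04 ± 0.369, Gcg at 3.14 ± 1.497 and Nts at 2.43 ± 0.508 formed an overlapping run, and neither Cck and Ghrl nor Nts and Tac1 overlapped. Tac1 at 1.16 ± 0.607, Tph1 at 0.987 ± 0.407 and Pyy at 0.371 ± 0.260 closed the order, each overlapping its neighbour. As a share of the summed level per kb, Gip was 33.4% in WT and 41.3% in the mutant, Cck 15.7% and 10.9%, and Tph1 1.57% and 0.553%.

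Among the 9 tested hormone genes 3, namely Cck, Sct and Tph1, were lower in the mutant and 0 were higher (edgeR quasi-likelihood test, adjusted p under 0.05). Among all 15416 genes tested, 17.1% were called lower and 15.4% higher, and the median log2 fold change of the 9 was -0.19 against 0.01 for all genes. The same 3 genes were the ones whose CPM did not overlap between genotypes, which was so for 30.9% of all genes tested, a share near 3 of 9. An unadjusted p under 0.05 was reached by 3 lower and 0 higher hormone genes, and DESeq2 also called 3 lower and 0 higher. With close pairs summed, 2 were lower, Cck and Tph1, and 0 higher, against 6.78% of genes lower and 2.23% higher. The summed level of the 10 genes was 205, 193, 190.0 and 191 CPM in WT 1 to 4 and 142, 148, 159, 157 and 154 CPM in mutants 1 to 5. These sums did not overlap, but they include Cck, Sct and Tph1, so they do not show a fall of the other genes.

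**Figure D1:**
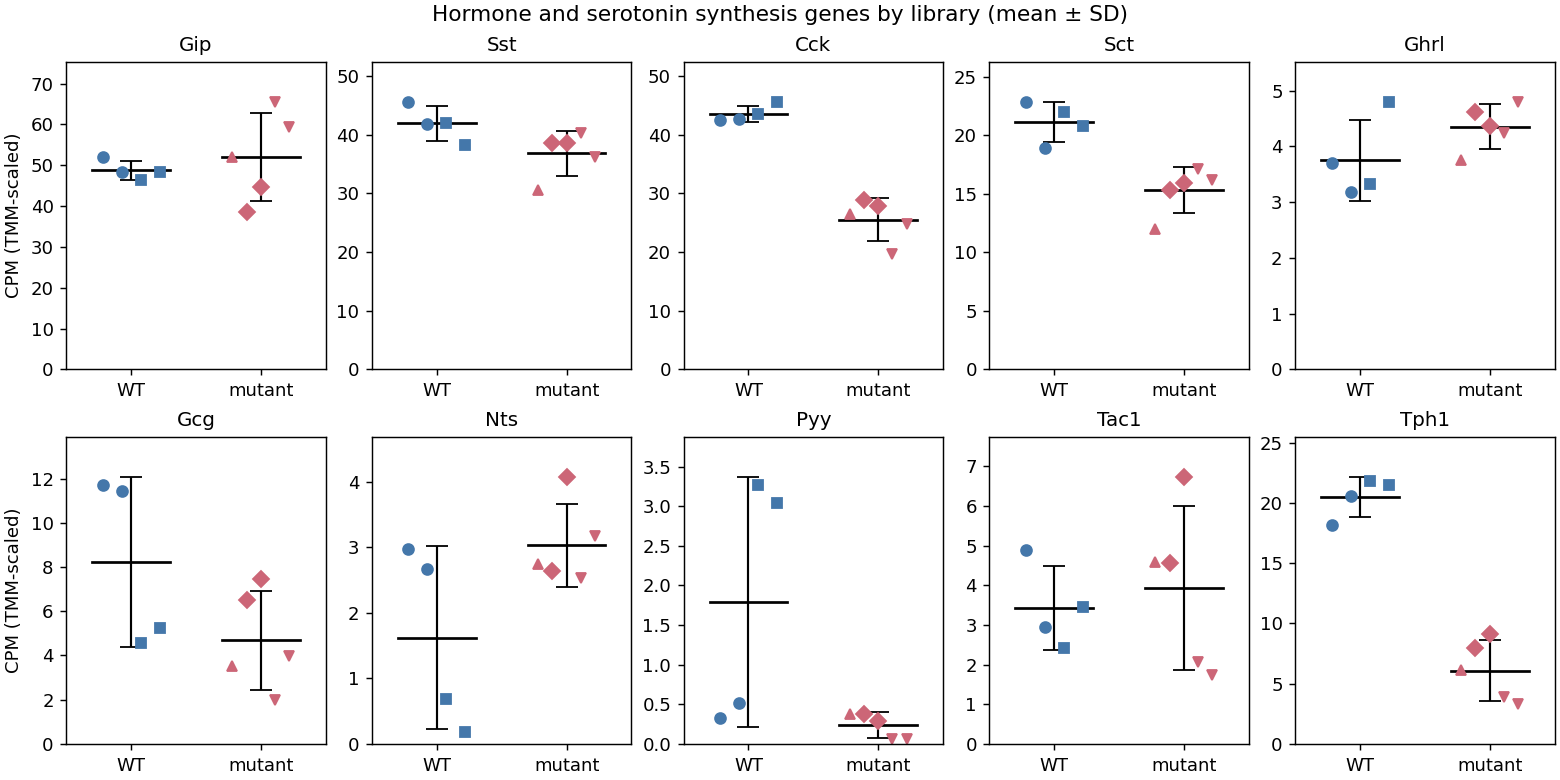
CPM (linear axis, one panel per gene) of the 10 hormone genes in each of 4 WT (blue) and 5 mutant (red) libraries, with lines for the mean ± SD; one marker shape within a genotype marks libraries that form a close pair. Cck, Sct and Tph1 show mutant libraries below every WT library, Gip spans 38.7 to 65.4 CPM within the mutants, and Nts, Gcg and Pyy split by pair within WT.

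**Figure D2:**
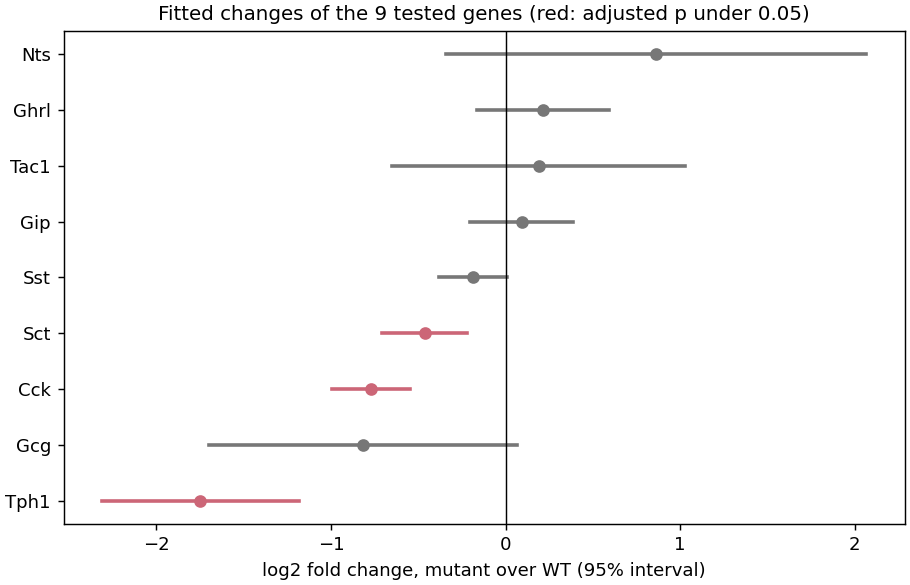
Log2 fold change of mutant over WT with its 95% confidence interval for the hormone genes that passed the filter, from the edgeR fit over all genes. The intervals of Cck, Sct and Tph1 lie below 0 and those of Gip, Ghrl, Sst, Nts, Gcg and Tac1 include 0.

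Cck, the gene of cholecystokinin, which is released by I cells on fat and protein and contracts the gall bladder, was lower in every mutant library. Cck (ENSMUSG00000032532, chr9:121489824-121495694, minus strand, on GRCm38 like the positions that follow) stood at 42.4, 42.7, 43.5 and 45.6 CPM in WT 1 to 4 and at 26.6, 28.9, 27.8, 19.6 and 24.8 CPM in mutants 1 to 5. The WT libraries lay within a narrow band, and the highest mutant was well below it. The means were 43.5 ± 1.42 CPM (SD, n = 4) and 25.5 ± 3.64 CPM (SD, n = 5), a 1.70-fold lower level with a log2 fold change of -0.77 (SE 0.10, edgeR adjusted p = 0.00022). Summed pairs gave -0.75 (edgeR adjusted p = 0.0156), and Cck was called lower in all 26 alternatives run.

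Sct encodes secretin, the S cell peptide that draws bicarbonate from the pancreas and the Brunner glands. Sct (ENSMUSG00000038580, chr7:141278330-141279133, minus strand) was at 22.8, 18.9, 21.98 and 20.8 CPM in WT and at 12.03, 15.4, 15.9, 17.1 and 16.2 CPM in the mutants. The groups did not overlap, but the lowest WT library and the highest mutant were close. On average Sct was at 21.1 ± 1.71 CPM (SD, n = 4 WT) and at 15.3 ± 1.95 CPM (SD, n = 5 mutants), which was 1.38-fold lower in the mutant with a log2 fold change of -0.46 (SE 0.11, edgeR adjusted p = 0.0078). The call was lost on summed pairs (-0.51, edgeR adjusted p = 0.12) and without WT 3 and 4 (-0.45, edgeR adjusted p = 0.058).

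Gip, the K cell hormone that boosts insulin release and fat storage after meals, did not pass the test. Gip (ENSMUSG00000014351, chr11:96024545-96030831, plus strand) was at 52.0, 48.4, 46.4 and 48.3 CPM in WT and at 52.0, 38.7, 44.6, 65.4 and 59.3 CPM in the mutants. WT values were tight, while the mutants lay on both sides of them: mutants 2 and 3 below, mutants 4 and 5 above, and mutant 1 level with the highest of them. The log2 fold change was 0.09 (SE 0.13, 95% interval -0.20 to 0.39, edgeR adjusted p = 0.64), which does not include the decrease seen for Cck. The difference between Gip and Cck was not tested. Without mutants 2 and 3 Gip was called higher (0.28, edgeR adjusted p = 0.033), and without mutants 4 and 5 its estimate was -0.11.

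Sst, the gene of the D cell inhibitor somatostatin, stood at 45.5, 41.8, 42.0 and 38.2 CPM in WT and at 30.5, 38.5, 38.6, 40.3 and 36.3 CPM in the mutants. Sst (ENSMUSG00000004366, chr16:23889573-23890958, minus strand) overlapped between genotypes, with mutant 1 the lowest library. Its log2 fold change was -0.19 (SE 0.09, 95% interval -0.38 to 0.01, edgeR adjusted p = 0.13). Of 26 alternatives only a scaling that holds 12 epithelial genes level called it lower (-0.55, edgeR adjusted p = 0.0031), and that scaling moves the median of all genes to -0.36.

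Ghrl, which encodes ghrelin, the hunger peptide that is most abundant in the stomach, was a low gene here. Ghrl (ENSMUSG00000064177, chr6:113716119-113719880, minus strand) was at 3.71, 3.19, 3.33 and 4.80 CPM in WT and at 3.76, 4.62, 4.37, 4.24 and 4.79 CPM in the mutants. WT 1 to 3 lay below every mutant, and the groups overlapped through WT 4 alone, the highest of all 9 libraries. The fitted log2 fold change was 0.21 (SE 0.17, 95% interval -0.16 to 0.59, edgeR adjusted p = 0.37). Opposite-strand gene models cover 172 of its 1079 exonic bases, and the library kit, which built the second strand with dTTP, does not mark strand, so reads of the strands cannot be told apart there.

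Gcg, Nts and Pyy are hormones of L and N cells, whose numbers grow towards the ileum, and within WT their levels split along the close pairs. Gcg encodes proglucagon, which L cells cut into GLP-1 and GLP-2. Gcg (ENSMUSG00000000394, chr2:62474530-62483650, minus strand) was at 11.7, 11.4, 4.57 and 5.26 CPM in WT and at 3.50, 6.51, 7.44, 2.00 and 3.98 CPM in the mutants. WT 1 and 2 were above all other libraries, and WT 3 and 4 lay among the mutants. On the log2 scale the difference was -0.82 (SE 0.40, 95% interval -1.70 to 0.07, edgeR adjusted p = 0.14). Without WT 3 and 4 Gcg was called lower (-1.30, edgeR adjusted p = 0.046), as it was without mutants 2 and 3 (-1.38, edgeR adjusted p = 0.027), but without WT 1 and 2 the difference was -0.07 (edgeR adjusted p = 0.93). It was also called lower with voom quality weights (-1.15, adjusted p = 0.035) and with 1 surrogate variable (-0.69, adjusted p = 0.035). With 12 epithelial genes held level Gcg was called lower too (-1.13, adjusted p = 0.019). That scaling moves the median of all genes to -0.36, so the value contains this common shift.

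Nts, the gene of neurotensin, an N cell peptide that slows gut motility and aids fat uptake, had 73, 46, 11 and 3 reads in WT. The mutants had 43, 49, 69, 43 and 55 reads. Nts (ENSMUSG00000019890, chr10:102481756-102490486, minus strand) was thus at 2.97, 2.67, 0.679 and 0.175 CPM in WT and at 2.74, 2.63, 4.08, 2.53 and 3.18 CPM in the mutants. WT 3 and 4 alone were low, and WT 1 and 2 lay within the mutant range. Mutant over WT, the log2 fold change was 0.86 (SE 0.54, 95% interval -0.34 to 2.07, edgeR adjusted p = 0.25). It was 2.82 without WT 1 and 2 (edgeR adjusted p = 0.0034) and 0.10 without WT 3 and 4 (edgeR adjusted p = 0.83), so the pair of WT libraries kept decided the value.

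Pyy, the L cell peptide that brakes transit and appetite, and that islets also make, had 8, 9, 53 and 52 reads in WT and 6, 7, 5, 1 and 1 reads in the mutants. Pyy (ENSMUSG00000017311, chr11:102106676-102107832, minus strand) was the hormone gene that did not pass the filter. WT 3 and 4, at 3.27 and 3.04 CPM, stood apart, WT 1, at 0.326 CPM, lay within the mutant range of 0.0577 to 0.382 CPM, and WT 2, at 0.522 CPM, lay just above it. With no filter the log2 fold change was -2.86 (SE 0.82, edgeR adjusted p = 0.037), and on summed pairs it was -2.84 (edgeR adjusted p = 0.12). Without WT 1 and 2 Pyy passed the filter and was called lower (-3.72, edgeR adjusted p = 0.0013). Without WT 3 and 4 it did not pass the filter and has no estimate.

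Markers of position and of islets differed along the same pairs. Pdx1, a transcription factor of the proximal duodenum and pancreas, was at 16.7, 16.3, 47.4 and 45.1 CPM in WT and at 12.6, 2.58, 2.01, 29.8 and 32.4 CPM in the mutants. Within each genotype the Pdx1-poor pair had more Gcg than the Pdx1-rich pair. The iron exporter Slc40a1, a gene of the proximal gut, was at 22.7, 22.9, 353 and 351 CPM in WT and at 11.3, 9.41, 7.44, 123 and 124 CPM in the mutants. Nts was lowest in the WT pair richest in both. The mutants showed no such split: mutants 4 and 5, the richer pair in both, had Nts at 2.53 and 3.18 CPM. Mutants 2 and 3 had Nts at 2.63 and 4.08 CPM. Of the 8 tested genes of the proximal list 0 were called in either direction by edgeR or DESeq2 (17.1% of all genes were lower by edgeR). At an unadjusted p under 0.05, 1 was lower (median -0.33). Of 12 gastric and Brunner gland markers 3 were tested, and all 3 were lower (median -2.36; 2 on summed pairs, against 6.78% of all genes). That list took 0.00678 to 0.0170% of reads in WT and 0.000255 to 0.000397% in the mutants. Of 8 tested genes of the distal list 3 were called higher and 0 lower by edgeR (15.4% of all genes were higher; median 0.50), and on summed pairs 0 were called.

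Ins2 had 223, 121, 665 and 619 reads in WT 1 to 4 and 0 in every mutant, and Ins1 had 63, 44, 168 and 172 reads in WT and 0 in every mutant. Ppy, the pancreatic polypeptide gene, had 5, 10, 76 and 67 reads in WT and 0 in every mutant. WT 3 and 4 were highest for Pyy as for these islet genes, whereas Gcg, which islet alpha cells also express, was highest in WT 1 and 2, where the islet genes were lower. Of 10 islet markers in the data 5 were tested, with 3 called lower and 0 higher (2 lower on summed pairs). Among all genes tested 17.1% were lower, and 6.78% on summed pairs. The part that position along the gut and pancreatic tissue play in the levels of Gcg, Nts and Pyy was not tested.

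**Figure D3:**
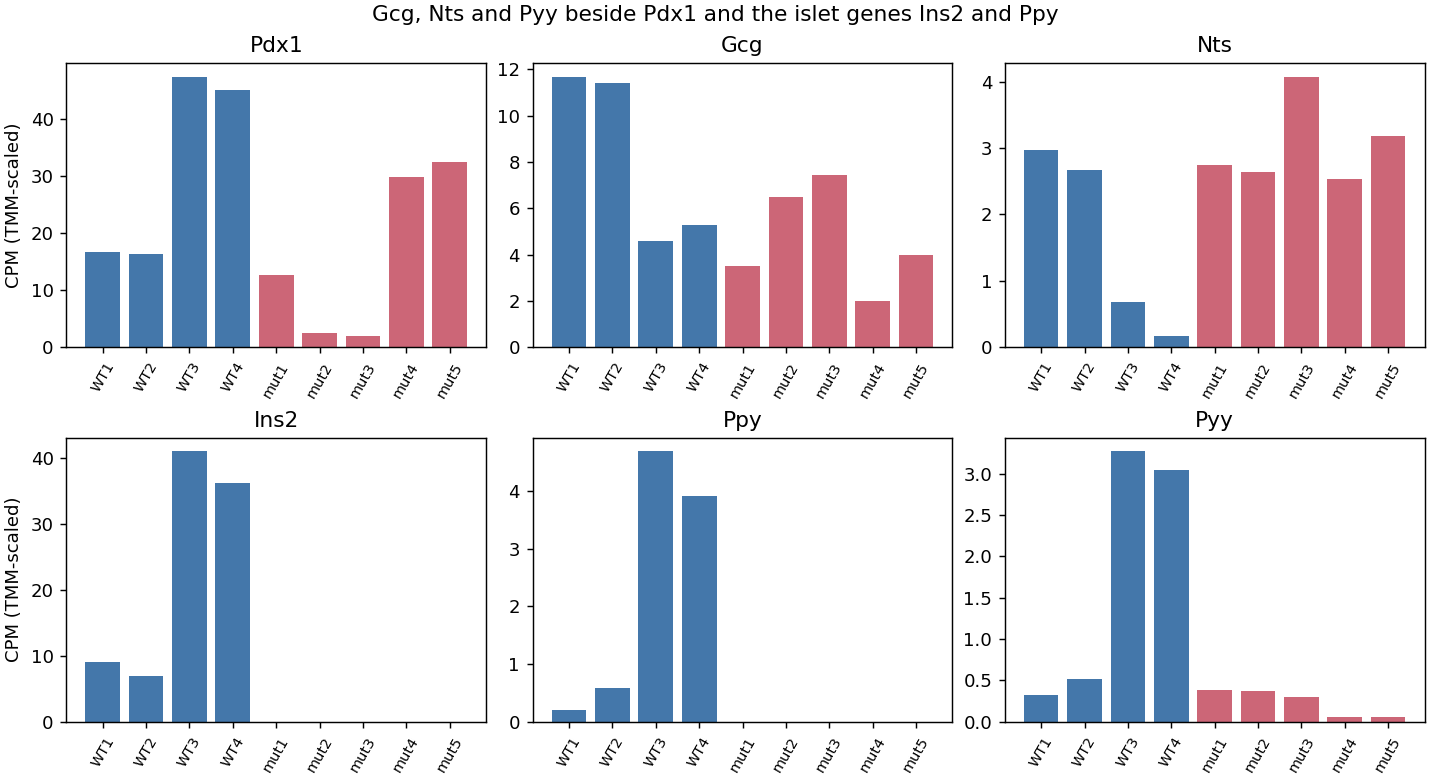
Bars of CPM (linear axes from 0, one panel per gene) for Pdx1, Gcg, Nts, Ins2, Ppy and Pyy in each of the 4 WT (blue) and 5 mutant (red) libraries. WT 3 and 4 have the highest Pdx1, Ins2, Ppy and Pyy and the lowest Nts, while Gcg is highest in WT 1 and 2, at 11.7 and 11.4 CPM.

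Tph1 had the largest decrease of the 9 tested hormone genes. It encodes tryptophan hydroxylase 1, the rate-limiting enzyme of serotonin synthesis in enterochromaffin cells. Tph1 (ENSMUSG00000040046, chr7:46644641-46672537, minus strand) was at 18.2, 20.6, 21.9 and 21.5 CPM in WT and at 6.11, 7.96, 9.16, 3.89 and 3.35 CPM in the mutants. The groups were far apart, and among the mutants 4 and 5 were the lowest. The means were 20.5 ± 1.66 CPM (SD, n = 4) and 6.09 ± 2.51 CPM (SD, n = 5), a 3.36-fold lower level with a log2 fold change of -1.75 (SE 0.26, edgeR adjusted p = 0.00051). It was called lower in all 26 alternatives, with -1.74 on summed pairs (edgeR adjusted p = 0.0192), -2.20 without mutants 2 and 3, and -1.40 without mutants 4 and 5.

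Tac1, the gene of substance P and neurokinin A, is expressed by enterochromaffin cells and by enteric neurons. Tac1 (ENSMUSG00000061762, chr6:7554879-7565834, plus strand) was at 4.89, 2.96, 2.41 and 3.45 CPM in WT and at 4.58, 4.57, 6.74, 2.06 and 1.73 CPM in the mutants. The mutants surrounded the WT libraries, with mutant 3 highest and mutants 4 and 5 lowest of all. The log2 fold change was 0.19 (SE 0.38, 95% interval -0.65 to 1.03, edgeR adjusted p = 0.74). Neuron and glia markers summed to 0.00646, 0.00822, 0.00873, 0.00438 and 0.00386% of reads in mutants 1 to 5. Among the mutants they were highest in mutant 3 and lowest in 4 and 5, as Tac1 was. In WT 1 to 4 they summed to 0.00611, 0.00574, 0.00374 and 0.00339%. WT 4 thus had the lowest share of all 9 libraries, while its Tac1, at 3.45 CPM, was above that of mutants 4 and 5. Of 16 tested markers 3 were called higher and 0 lower (median 0.49), near the 15.4% higher among all genes, with 1 higher on summed pairs, and their part in the Tac1 values was not tested.

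Of the 9 tested genes of a 10-gene list of serotonin handling, 5 were higher and 0 lower in the mutant (edgeR; 15.4% of all genes were higher), with a median log2 fold change of 0.29. DESeq2 also called 5 higher and 0 lower, and on summed pairs 1 was called higher. With 12 epithelial genes held level, Slc6a4, Spr, Maoa and Pts were not called. The called genes act in breaking serotonin down (Maoa, Maob), in taking it up (Slc6a4) and in making the tetrahydrobiopterin cofactor (Spr, Pts). Maob was higher by 0.66 (SE 0.12, edgeR adjusted p = 0.0015), also in all 26 alternatives, while Pts lost its call in 13 of them.

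Slc6a4, the transporter by which enterocytes clear serotonin, was at 85.7, 86.3, 62.6 and 60.002 CPM in WT. In the mutants it was at 118, 136, 129, 94.2 and 94.4 CPM, above every WT library. Its log2 fold change was 0.63 (SE 0.15, edgeR adjusted p = 0.0084), lost on summed pairs (adjusted p = 0.076) and without WT 3 and 4 (adjusted p = 0.094). Spr, sepiapterin reductase, was higher by 0.45 (SE 0.08, edgeR adjusted p = 0.0014), and Maoa by 0.42 (SE 0.13, edgeR adjusted p = 0.024), the latter lost without WT 3 or WT 4 (adjusted p = 0.081 for each) and on summed pairs (adjusted p = 0.16).

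Of the other genes that enterochromaffin cells use to make and store serotonin, Slc18a1 and Ddc were not called. Slc18a1, the vesicle transporter of enterochromaffin granules, was at 15.7, 15.7, 14.3 and 14.5 CPM in WT and at 15.7, 13.4, 13.9, 16.1 and 14.4 CPM in the mutants. Its values overlapped throughout, and the log2 fold change was -0.03 (SE 0.09, 95% interval -0.24 to 0.17, edgeR adjusted p = 0.81). Ddc, the decarboxylase that completes serotonin synthesis and is also made by enterocytes, was at 301, 291, 302 and 311 CPM in WT and at 277, 177, 186, 305 and 306 CPM in the mutants, with mutants 2 and 3 low (-0.27, SE 0.16, 95% interval -0.63 to 0.09, edgeR adjusted p = 0.24). With 12 epithelial genes held level both were called lower (-0.40 with edgeR adjusted p = 0.024, and -0.64 with 0.018). That scaling moves the median of all genes to -0.36, so both values contain this common shift. Ddc was also called lower without mutants 4 and 5. Both 95% intervals leave out the Tph1 estimate of -1.75, though a test between these genes was not made. Tph2, the neuronal hydroxylase, had 0 reads in every library.

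Mast cells can also express Tph1 in rodents. The 3 tested of 10 mast cell markers gave 0 calls in either direction by edgeR, while 1 was lower by DESeq2 and 1 at an unadjusted p under 0.05. Among all genes 17.1% were lower by edgeR, 2900 of 15415 by DESeq2 and 3367 of 15416 at an unadjusted p under 0.05. The list took 0.00208 to 0.00257% of reads in WT and 0.00160 to 0.00284% in the mutants, most of it from Kit (means of 13.1 and 15.4 CPM) and Hdc (6.27 and 5.42 CPM), which other gut cells also express. The proteases more particular to mast cells had lower means in the mutants: Cpa3 0.240 and 0.0462 CPM, Mcpt1 1.40 and 0.750 CPM, and Mcpt2 0.607 and 0.309 CPM in WT and mutant. Cpa3, mast cell carboxypeptidase, had 6, 4, 5 and 3 reads in WT and 0, 1, 3, 0 and 0 reads in the mutants. Mcpt2 had 13, 7, 9 and 16 reads in WT and 7, 3, 6, 4 and 6 in the mutants, and Mcpt1 had a log2 fold change of -0.90 (edgeR adjusted p = 0.060). Cpa3 and Mcpt2 rest on few reads, and the part of mast cells in the Tph1 value was not tested.

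**Figure D4:**
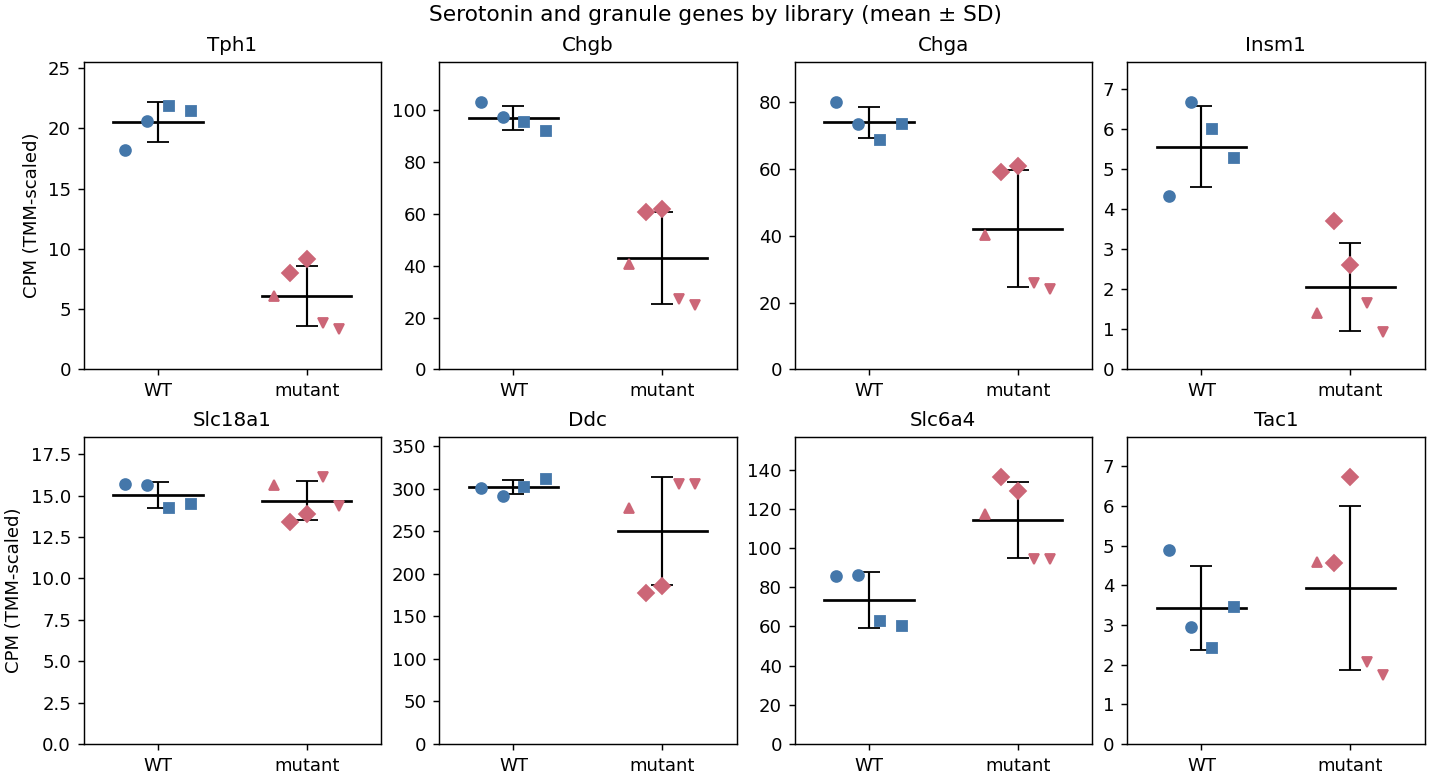
CPM (linear axes, one panel per gene) of Tph1 beside genes of serotonin handling and of secretory granules in 4 WT (blue) and 5 mutant (red) libraries, with the mean ± SD; one marker shape within a genotype marks a close pair. Tph1, Chga and Chgb are below every WT library in all mutants, with mutants 4 and 5 lowest, while Slc6a4 is above and Slc18a1 overlaps.

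Among 27 genes of secretory granules and prohormone processing, all of which were tested, 5 were lower and 2 higher (edgeR; 17.1% and 15.4% of all genes), with a median log2 fold change of -0.24. DESeq2 called 7 lower and 2 higher, and on summed pairs 1 was lower and 0 higher. The lower genes were Ptprn2, Chgb, Rimbp2, Syt13 and Bex2, and the higher ones Qdpr and Cpe. Rimbp2 and Syt13 each lost the call in 7 of 26 alternatives and Bex2 in 15. Ptprn2, the granule membrane protein phogrin, fell by 1.71 on the log2 scale (SE 0.29, edgeR adjusted p = 0.0011) and was called in all 26 alternatives.

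Chgb, chromogranin B, a bulk protein of the granule core, was at 103, 97.6, 95.4 and 92.2 CPM in WT and at 40.6, 60.9, 61.9, 27.2 and 25.0 CPM in the mutants. The groups did not overlap, and as for Tph1 mutants 4 and 5 were the lowest. The fitted log2 fold change was -1.17 (SE 0.27, edgeR adjusted p = 0.010), lost on summed pairs (adjusted p = 0.088), without WT 1 and 2 (adjusted p = 0.063) and without WT 3 and 4 (adjusted p = 0.050).

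Chga, chromogranin A, was at 80.0, 73.6, 68.5 and 73.6 CPM in WT and at 40.3, 59.2, 60.7, 25.9 and 24.1 CPM in the mutants, again with no overlap. Its log2 fold change of -0.81 (SE 0.28, edgeR adjusted p = 0.052) missed the threshold, and it was called without mutant 2 (adjusted p = 0.028) or mutant 3 (adjusted p = 0.022), and by DESeq2 among other alternatives. Pcsk1, the proconvertase that cuts prohormones in gut endocrine cells, differed by 0.34 (SE 0.18, edgeR adjusted p = 0.18). Cpe, the carboxypeptidase that trims the cut peptides and that other cells also make, was higher by 0.66 (SE 0.17, edgeR adjusted p = 0.011). Qdpr, which recycles tetrahydrobiopterin, was higher by 0.49 (SE 0.08, edgeR adjusted p = 0.0010). Both lost their call on summed pairs (adjusted p = 0.087 and 0.057) and with 12 epithelial genes held level, and Cpe also without WT 3 and 4 (adjusted p = 0.12).

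Of 17 enteroendocrine transcription factors 14 were tested, and 3 were lower and 0 higher, with a median of -0.62 (edgeR), a count near the 17.1% lower among all genes. At an unadjusted p under 0.05, 8 were lower and 0 higher, against 3367 lower of all 15416 genes, DESeq2 called 3 lower, and on summed pairs 0 were called. Insm1, a zinc finger factor of endocrine differentiation, was at 4.32, 6.67, 5.99 and 5.26 CPM in WT and at 1.40, 3.71, 2.60, 1.65 and 0.924 CPM in the mutants. All mutants were below all WT libraries, and the log2 fold change was -1.42 (SE 0.33, edgeR adjusted p = 0.0071), with an adjusted p of 0.068 on summed pairs and 0.051 without WT 3 and 4. Foxa2 (-1.46, SE 0.36, edgeR adjusted p = 0.0087) and Rfx3 (-0.80, SE 0.16, edgeR adjusted p = 0.0025) were also lower and both lost their calls on summed pairs (adjusted p = 0.092 and 0.089), and Foxa2 also without WT 1 and 2 (adjusted p = 0.067).

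Of 21 other gut peptide genes 13 were tested, and 2 were higher and 3 lower (median 0.48), near the 15.4% and 17.1% of all genes. On summed pairs 1 was higher and 1 lower. Nmu, neuromedin U, was higher by 1.65 (SE 0.35, edgeR adjusted p = 0.0040) and in all 26 alternatives, and Guca2b, the enterocyte peptide uroguanylin, by 0.70 (SE 0.12, edgeR adjusted p = 0.0011). Gal, the neuropeptide galanin, had a log2 fold change of -1.23 (SE 0.24, edgeR adjusted p = 0.0022). Iapp, the islet peptide amylin, had a log2 fold change of -3.29 (SE 0.64, edgeR adjusted p = 0.0026). Iapp was at 1.22, 1.74, 6.36 and 5.61 CPM in WT 1 to 4, highest in WT 3 and 4 as the insulin genes were. The part of pancreatic tissue in the Iapp value was not tested. The vascular peptide gene Adm was the other lower one. Guca2b and Gal missed the threshold on summed pairs (adjusted p = 0.056 for each), Iapp with the pair as a random block (adjusted p = 0.058), and Adm in 16 of 26 alternatives.

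Receptors for these hormones were lower where they were called. Of 32 genes for receptors and peptide-clearing enzymes 13 were tested, with 4 lower and 2 higher and a median of -0.48 (17.1% and 15.4% of all genes). On summed pairs 4 were lower and 1 higher. Cckar, the receptor through which cholecystokinin acts on pancreas and gall bladder, was at 12.2, 9.80, 22.8 and 24.5 CPM in WT and at 0.382, 0.376, 0.355, 0 and 0.231 CPM in the mutants. Its log2 fold change was -5.97 (SE 0.46, edgeR adjusted p = 9.8e-06), and WT 3 and 4, with the most acinar reads, were also highest for Cckar. The GLP-1 receptor Glp1r (-2.85, SE 0.32), the GLP-2 receptor Glp2r (-2.53, SE 0.26) and the substance P receptor Tacr1 (-1.56, SE 0.22) were lower too, with edgeR adjusted p of 6.9e-05, 4.2e-05 and 0.00033. All 4 were called in all 26 alternatives. The part of pancreatic tissue in these values was not tested. The 2 higher genes were the brush border peptidases Dpp4 and Mme, which inactivate peptide hormones. Mme lost its call on summed pairs (adjusted p = 0.093), without WT 3 and 4 (adjusted p = 0.052) and with 12 epithelial genes held level (adjusted p = 0.29).

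General epithelial markers were higher where they were called. Of 12 such markers 6 were higher and 0 lower (edgeR; 15.4% of all genes were higher; median 0.34), with 2 higher on summed pairs, and their summed share of reads was 0.882 to 1.16% in WT and 1.13 to 1.28% in the mutants. Epcam, the epithelial adhesion molecule, was higher by 0.48 (SE 0.09, edgeR adjusted p = 0.0023; not called on summed pairs, adjusted p = 0.10). With the 12 held level, the median of all genes moved from 0.01 to -0.36, and Cck was at -1.15, Sct at -0.83 and Tph1 at -2.14, values that contain this common shift. In the other secretory lineages, 10 of 10 goblet and 9 of 10 Paneth markers were lower (medians -1.67 and -3.47; 8 and 7 on summed pairs), and 9 of 9 tested tuft markers were higher (median 1.60; 8 on summed pairs). Among all genes tested 17.1% were lower and 15.4% higher, and on summed pairs 6.78% and 2.23%. Pla2g12b RNA itself was at 90.1 ± 15.7 CPM (SD, n = 4 WT) and 121 ± 15.1 CPM (SD, n = 5 mutants), higher by 0.42 on the log2 scale (SE 0.13, edgeR adjusted p = 0.023), so RNA level gives no check of the genotype labels. That call was lost without WT 3, WT 4 or mutant 1, among other alternatives.

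Likeness was sought among tested genes of at least 1 CPM, without genes of Gm or Rik names and without immunoglobulin and T cell receptor segments. Results for Sct, Ghrl, Sst and Tac1 are not given here. The genes whose log2 CPM ran most like each tested hormone gene over the 9 libraries were taken from these candidates. For Tph1 they were Cav2, Man2a2 and F2r (Pearson r = 0.994 for each), for Cck Mylip, Nfatc1 and Mvb12b (r = 0.995, 0.993 and 0.993), and for Gip Adtrp, Cnst and Rab9 (r = 0.975, 0.974 and 0.959). For Gcg they were Snd1, Noa1 and Ctdsp2 (r = 0.960, 0.957 and 0.954), and for Nts Zc3h12d, Slc44a1 and Tmem107 (r = 0.969, 0.966 and 0.957). None of these was a hormone gene. The 9 libraries share genotype and close pairs, so these values are a description.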

How the data were processed

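Poly(A) RNA of duodenum was sequenced, per the labels' protocols, and the authors deposited 1 table of raw read counts per gene for the 9 libraries, with a column of gene length. HISAT2 2.0.5 and featureCounts 1.5.0-p3 are named in the submitters' processing notes, beside builds that include human and mm39 names; the coordinates in the table match GRCm38, with 53462 of 54532 gene IDs at the same place in GENCODE M21, all 10 hormone genes included. Reads shared by overlapping genes or near-identical copies depend on a counting setting not given in the sources used here. In the table, 27 gene symbols had been turned into dates; no hormone gene was among them.

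Counts were tested in R 4.3.3 with edgeR 4.0.16 (TMM scaling, filterByExpr, robust quasi-likelihood fit, genotype alone), with p-values adjusted by Benjamini-Hochberg over 15416 genes at a threshold of 0.05; 95% intervals and the floor of 3 reads rest on these libraries alone, and the floor covers counting error only. Log2 fold changes are mutant over WT. CPM are counts per TMM-scaled library size, and shares of reads use unscaled totals. Levels per kilobase divide CPM by the deposited gene length. The edgeR fit was tested on simulated data with 200 changed genes. Its libraries were drawn independently, so it cannot show how the calls hold where libraries form close pairs. Alternatives used DESeq2 1.42.0, limma 3.58.1 (voom) and sva 3.50.0, other scalings and filters, libraries or close pairs left out, and counts summed over close pairs; mouse numbers were checked for pairing and did not pair the libraries.

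The hormone genes and the 18 other gene lists were chosen with earlier results of these data known. From each list other than the cell type markers up to 4 called genes with the smallest p were named; the rest of the called genes in short lists, and Pdx1, Slc40a1, Slc18a1, Ddc and Pcsk1, were chosen after their values were seen. Marker lists are given by counts and shares of reads. For each tested hormone gene the 3 most alike genes were sought. Promoters come from the RefSeq table for GRCm38.p6.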

Additional observations from a re-analysis of the deposited data

Results flagged for a closer look

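Among 58 genes checked, 6 combinations of a gene and a genotype had 1 library far from the others, by the gap to its nearest neighbour as a share of the group's range. Chance meets this criterion in about 1 of 20 groups, so with 58 genes checked in each genotype 6 is near the number chance would give. That rate may not hold where libraries form close pairs. None of the 10 hormone genes was among them. Tacr1, the substance P receptor, had a gap of 0.961 in WT, where WT 1 stood at 5.74 CPM and the others at 3.57 to 3.65 CPM. Maoa had a gap of 0.791 in the mutants, where mutant 1 stood at 902 CPM and the others at 704 to 745 CPM. Syt13 had a gap of 0.864 in the mutants, with mutant 4 at 1.18 CPM and the others at 2.71 to 2.95 CPM. Slc5a1 had a gap of 0.749 in the mutants, with mutant 1 at 4813 CPM. Ctrb1, an acinar gene, had a gap of 0.817 in the mutants on 0, 1, 0, 5 and 0 reads. Gast, the gastrin gene, had a gap of 1 in WT, on 2 reads in WT 4 and 0 in all other libraries.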

How the results depend on the processing

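With any 1 library left out, 3 hormone genes were called lower and 0 higher each time, and the granule count of 7 ran from 5 to 9. With 12 epithelial genes held level, 5 hormone genes were lower and 11 granule genes called. Voom with quality weights called 11 granule genes, summed pairs 1, and leaving out WT 3 and 4 called 2. Leaving out WT 1 and 2, or mutants 2 and 3, called 1 hormone gene higher, Nts and Gip in turn. Over all genes, 2369 were higher and 2634 lower, against 276 and 6137 with the epithelium held level, 385 and 1173 on summed pairs, 1172 and 1644 with the pair as random effect, and 1451 and 1975 without WT 3 and 4. Values changed sign only for genes not called on either side, except Pts, which lost its call. With the epithelium held level these were Gip (-0.27), Ghrl (-0.16), Tac1 (-0.17), Pcsk1 (-0.0023) and Pts (-0.095). Tac1 was also at -0.47 with voom weights, -0.032 with the pair as random effect, -0.0097 without WT 3 and 4, -0.31 without mutants 2 and 3, and from -0.092 to 0.42 when 1 library was left out, lowest without mutant 3. Gip ran from -0.00085 (without mutant 4) to 0.18 when 1 library was left out and was -0.11 without mutants 4 and 5, Slc18a1 at 0.029 without WT 1 and 2 and 0.042 without mutants 2 and 3, and Slc40a1 at 1.27 without WT 3 and 4. The cause was not tested. With the mouse number as a replicate block, 3 hormone genes were lower and 0 higher and 6 granule genes were called. The numbers did not pair the libraries: deviations of same-numbered libraries correlated at 0.03, 0.14, -0.15 and 0.13, and 1 of 4 WT and 1 of 4 mutant libraries correlated best with its own number. Ctrb1 could not be fitted where acinar genes were removed. Depth limits Pyy and Nts most, with libraries at 1 and 3 reads.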

Other observations

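Nutrient and irritant sensors that enteroendocrine cells are known to use moved in both directions. Of 19 listed genes 13 were tested, and 3 were higher and 3 lower in the mutant (edgeR; 15.4% and 17.1% of all genes), with a median log2 fold change of -0.03; on summed pairs 1 was higher and 1 lower. Trpa1, an irritant channel known in enterochromaffin cells, was at 4.40, 4.17, 3.52 and 4.21 CPM in WT and at 1.66, 1.24, 1.95, 1.18 and 0.693 CPM in the mutants. Every mutant was below every WT library, and mutant 5 was lowest for it. The log2 fold change of Trpa1 was -1.60 (SE 0.26, edgeR adjusted p = 0.00082), called in all 26 alternatives. Ffar3, a receptor for short-chain fatty acids, was at 2.57, 2.03, 1.67 and 2.46 CPM in WT and at 10.3, 8.17, 9.34, 6.77 and 7.85 CPM in the mutants. Its groups were far apart, with a log2 fold change of 1.95 (SE 0.19, edgeR adjusted p = 2.7e-05), and it was called in all 26 alternatives. Bulk RNA does not tell which cells the Ffar3 reads came from. The part of other cell types, such as the tuft cells whose markers were also higher, was not tested.

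Ffar4, a receptor for long-chain fatty acids, was at 2.69, 1.86, 1.17 and 1.40 CPM in WT and at 0.573, 0.968, 1.06, 0.353 and 0.231 CPM in the mutants. It was lower by a log2 fold change of -1.48 (SE 0.42, edgeR adjusted p = 0.019), which was lost without WT 1 (adjusted p = 0.074) and on summed pairs (adjusted p = 0.13). The peptide transporter Slc15a1, an enterocyte gene too, was higher by 0.75 (SE 0.17, edgeR adjusted p = 0.0072; lost on summed pairs, adjusted p = 0.073, and without WT 3 and 4, adjusted p = 0.067). The mechanical channel Piezo2 was lower and the glucose transporter Slc5a1 higher, and these lost the call in 8 and 7 of 26 alternatives.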
